A study of Mus musculus with 144 samples.

Results

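Bhlhe40, Bhlhe41 and Ciart, which encode the accessory clock repressors DEC1, DEC2 and CHRONO, were followed by genotype, feeding schedule and time of day in mouse liver and in 2 cell types isolated from it. They are 3 of the 24421 gene symbols in the deposited expression tables and were chosen by symbol, with the transcript of the largest mean kept for each. RNA came from male C57BL/6J mice on normal chow. The control mice are labelled wild type, and the knockout mice are labelled as lacking both REV-ERB receptors, alpha and beta (genes Nr1d1 and Nr1d2), in adult hepatocytes. Whole liver was taken with food always present (ad libitum) or on reverse-phase feeding (RPF, food offered in the phase in which mice usually rest), at ZT (zeitgeber time, the hours since lights came on) 1, 4, 7, 10, 13, 16, 19 and 22. Cells of the sinusoid lining (endothelial) and liver macrophages (Kupffer) were isolated from mice of both genotypes at ZT 4, 10, 16 and 22, with the feeding of those mice not given in the labels. Each of the 48 groups had 3 libraries, 144 in all. The deposited columns are named GFP and CRE while the sample titles say WT and KO. GFP columns were read as control and CRE columns as knockout, which the labels do not spell out, so each genotype direction given here rests on that reading. The labels give no age, no means of deletion and no efficiency. Whether libraries of a group are separate animals is not stated, and p-values then reflect library-to-library spread, which may be technical.

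The circadian clock is a loop in which the activators BMAL1 (encoded by Arntl) and CLOCK or NPAS2 switch on their own repressors through E-boxes, short DNA elements with the core CACGTG. DEC1 and DEC2 are basic helix-loop-helix proteins that bind E-boxes themselves and displace or silence the activators there, and CHRONO binds BMAL1 and represses it without belonging to that protein family. All 3 genes are E-box targets as well, so they act on the loop that drives them. DEC1 also responds to many outside signals, among them serum, hypoxia and feeding cues. REV-ERB receptors form another arm of the clock, repressing Arntl and Npas2 through response elements that contain the half-site AGGTCA.

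On mm9, the build of the tables, Bhlhe40 (NM_011498) lies on chromosome 6 from 108610623 to 108616919 on the plus strand. Bhlhe41 (NM_001271768) lies on chromosome 6 from 145806763 to 145813940 on the minus strand, and Ciart (NM_001033302) on chromosome 3 from 95682428 to 95686151 on the minus strand. Each value is a count over the whole spliced transcript. The 250 bases before the annotated start are shown for Bhlhe41 and Ciart, to let the E-box core be seen in genes known as E-box targets. These 2 of the 3 members matched the RefSeq promoter table by symbol, on GRCm38.p6, and Bhlhe40 is named only. Capitals mark CACGTG, which reads the same on both strands.
Bhlhe41, chr6:145865421-145865670, minus strand: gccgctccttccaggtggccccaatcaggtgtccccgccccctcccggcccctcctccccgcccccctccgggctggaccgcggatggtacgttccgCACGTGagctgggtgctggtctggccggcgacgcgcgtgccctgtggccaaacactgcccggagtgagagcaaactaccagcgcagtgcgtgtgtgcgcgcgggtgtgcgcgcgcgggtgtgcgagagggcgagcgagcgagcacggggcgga
Ciart, chr3:95882229-95882478, minus strand: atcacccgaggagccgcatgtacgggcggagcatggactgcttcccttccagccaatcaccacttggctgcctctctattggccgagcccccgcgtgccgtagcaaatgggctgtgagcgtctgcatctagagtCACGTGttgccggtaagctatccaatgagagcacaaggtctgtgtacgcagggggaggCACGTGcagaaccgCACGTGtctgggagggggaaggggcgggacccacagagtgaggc
The Bhlhe41 window held 1 CACGTG, beginning 153 bases before the start. The Ciart window held 3, beginning 116, 58 and 44 bases before it. Of 32851 windows of that length in the table, 6.02% held at least 1 CACGTG and 0.0609% held 3 or more. Neither window held CACGTT, the REV-ERB half-site AGGTCA or the D-box TTATGTAA on either strand, which 3.85%, 14% and 0.819% of all windows did. A match describes letters in this window and is not evidence of binding.

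Counts summed over the 1 row kept per symbol lay between 4.57e6 and 10.4e6 per library in the ad libitum table. In the RPF table they lay between 13.1e6 and 26.2e6. Over all transcript rows the sums were 6.79e6 to 15.0e6 and 19.8e6 to 39.4e6. Values of low genes thus rest on more reads in the RPF table. The endothelial and Kupffer values are a quantile-normalised signal whose depth is unknown, and levels are compared only within a table. The targeted gene Nr1d1 ranged from 1.299 to 169 normalised CPM (counts scaled to a common library size) in controls and from 18.999 to 175 in knockouts ad libitum, and from 3.74 to 91.1 and from 41.6 to 153 under RPF, so it was not lower in the libraries labelled knockout. Nr1d2 ranged from 5.45 to 107 and from 37.1 to 117 ad libitum. Counts over whole transcripts include exons outside any deleted part, so they do not check the deletion. Arntl, the direct REV-ERB target, ranged from 0.835 to 50.1 CPM in controls and from 34.0 to 54.3 in knockouts ad libitum, and Npas2 from 0 to 19.8 and from 10.5 to 25.8. Defining markers of the labelled material were present: Alb (albumin, hepatocytes) reached at least 45454 CPM in every liver library, Stab2 (stabilin, sinusoidal endothelium) a signal of at least 16012 in every endothelial library, and Clec4f (Kupffer cell lectin) one of at least 24097 in every Kupffer library. A fixed list of 9 libraries was treated as standing apart in length bias, spread or ribosomal RNA. In liver they were ad libitum controls ZT 16 number 2 and ZT 22 number 2, and RPF knockout ZT 10 number 3. The others were endothelial knockouts ZT 22 numbers 2 and 3, and numbers 2 and 3 of each Kupffer group at ZT 4. The list follows no single cut-off. The RPF library had a spread 2.80 median absolute deviations from its table's median. Unlisted libraries had 2.87 (ad libitum control ZT 4 number 3) and 2.88 (Kupffer control ZT 4 number 1) in length bias. Unlisted RPF control ZT 19 number 1 held 3.24% ribosomal RNA, against a median of 0.264%.

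Per length, Bhlhe40 was the most abundant of the 3 genes in liver and Bhlhe41 the least. In ad libitum controls the level over all times was 42.5 ± 16.1 CPM per kilobase (SD, n = 24) for Bhlhe40, 7.19 ± 7.75 for Ciart and 0.533 ± 0.600 for Bhlhe41. In RPF controls it was 34.7 ± 27.1, 4.205 ± 3.92 and 0.569 ± 0.874. These SDs include the daily swing, which is larger than the mean for Ciart and Bhlhe41 ad libitum. Since Bhlhe41 libraries at the trough held few reads, its lowest values rest on single digits: the 3 ad libitum controls at ZT 1 had 1, 3 and 6 expected counts.

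Bhlhe41 was higher in knockout than in control liver on both feeding schedules. Its daily mean of log2 expression, taken from a 24-h cosine fit per genotype, rose by 0.96 ± 0.24 (SE) ad libitum and by 1.95 ± 0.23 under RPF, or 1.94-fold and 3.87-fold. The edgeR adjusted p was 0.00174 and 5.05e-09, and the knockout group mean was above the control mean at 8 of 8 times on each schedule. Of all genes tested, 27.2% ad libitum and 26.9% under RPF differed between genotypes at adjusted p under 0.05, and 13.7% and 12.7% were higher in the knockout. In bulk liver fewer cells of a type and less RNA per cell cannot be told apart. The larger RPF effect, a difference of 0.998 ± 0.36 on the log2 scale between schedules, was not called (adjusted p = 0.380, with 0.207% of genes called), and the call in each schedule held without any single library.

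At single times under ad libitum feeding, the Bhlhe41 estimate was largest at ZT 4. There the 3 control libraries had 1.55, 1.23 and 2.07 normalised CPM and the 3 knockout libraries 8.68, 10.5 and 4.84. No knockout library overlapped the controls, and the difference of 2.28 ± 0.37 (log2, 4.86-fold) had an edgeR adjusted p of 0.000160, at a time when 0.894% of genes were called higher. Here and below, shares called are at adjusted p under 0.05, a stricter measure than groups without overlap. The share of all genes whose groups did not overlap is not given. At ZT 7, the peak of both genotypes, controls had 11.2, 14.5 and 9.16 CPM and knockouts 14.1, 14.1 and 17.3. These groups overlapped (0.38 ± 0.27, adjusted p = 0.509). At ZT 16 controls had 2.24, 1.97 and 1.77 CPM and knockouts 5.79, 2.76 and 4.75, which did not overlap, but the difference of 1.11 ± 0.37 was not called (adjusted p = 0.102, with 1.64% of genes called higher). At ZT 1 the knockouts (1.99, 0.926 and 1.28 CPM) again lay above the controls (0.733, 0.377 and 0.149), with an adjusted p of 0.121 (1.52% called higher). At ZT 10, 13, 19 and 22 the genotypes overlapped, with differences between 0.51 and 0.78 that were not called.

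**Figure D1:**
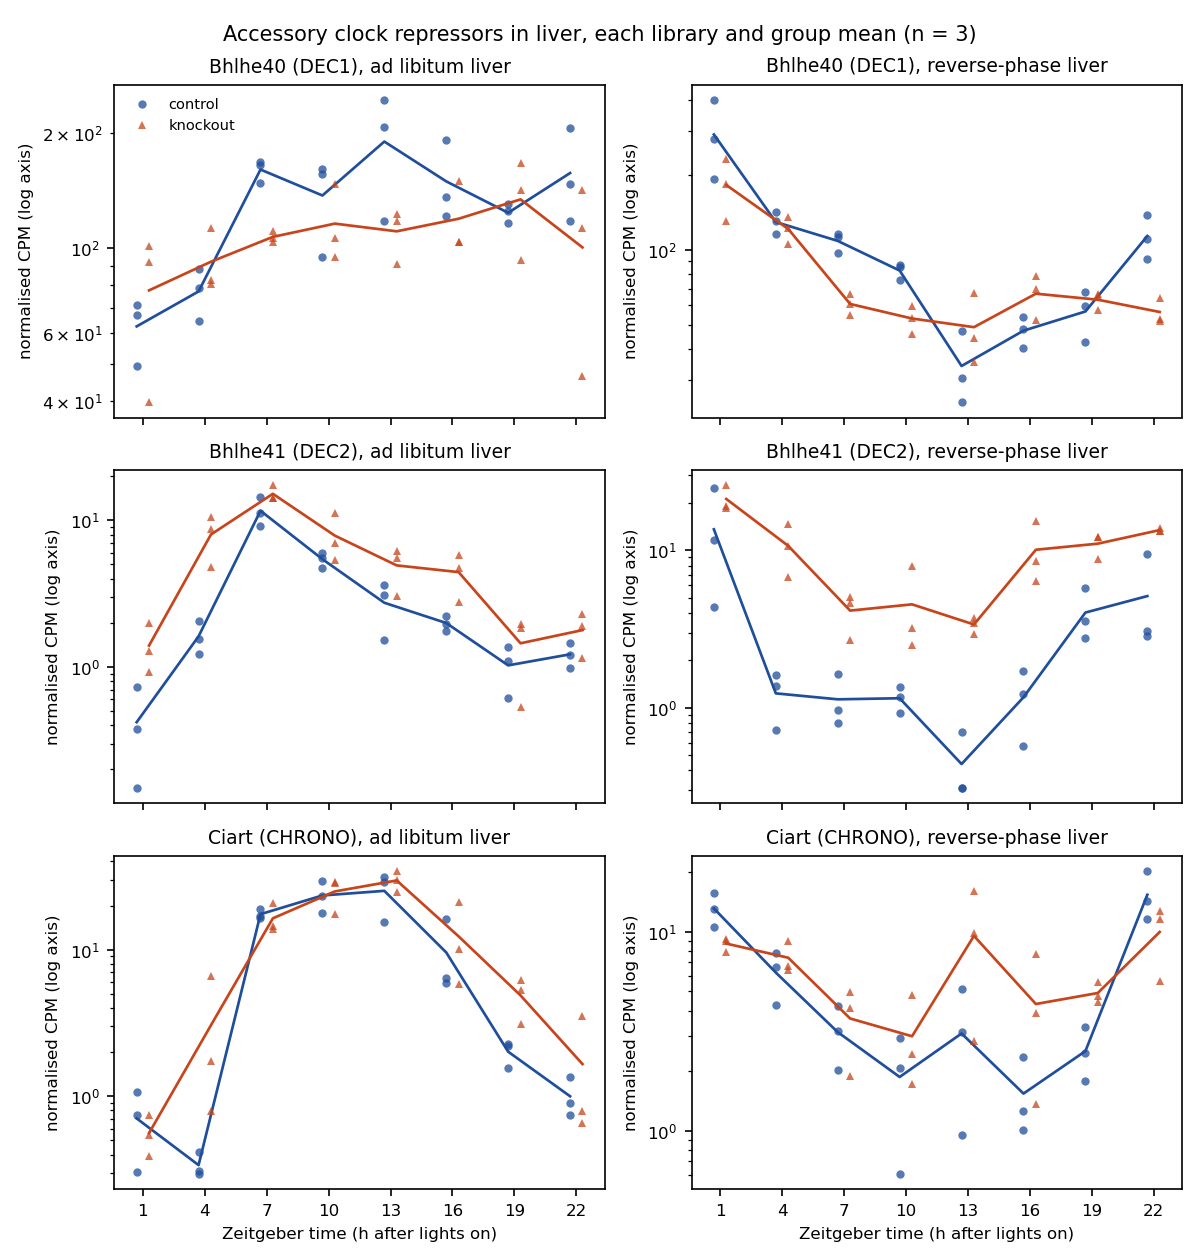
Normalised CPM (log axis) of Bhlhe40, Bhlhe41 and Ciart in whole liver against zeitgeber time, with 1 point per library (circles control, triangles knockout) and lines through the means of 3. Knockout Bhlhe41 lies above control at each time on both schedules, and the control traces of all 3 genes peak in the second part of the light phase or the early dark phase ad libitum and around ZT 22 to ZT 1 under RPF.

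Under RPF the largest Bhlhe41 estimates fell at ZT 4, 13 and 16. At ZT 4 controls had 1.37, 1.61 and 0.725 CPM and knockouts 6.81, 10.6 and 14.6. At ZT 13, the control trough, controls had 0.699, 0.309 and 0.311 CPM and knockouts 3.46, 3.74 and 2.94. At ZT 16 controls had 1.71, 1.22 and 0.569 CPM and knockouts 6.37, 8.56 and 15.3. No knockout library overlapped the controls at these 3 times. The differences were 3.10 ± 0.53, 2.98 ± 0.62 and 3.07 ± 0.53 on the log2 scale, or 8.58-fold, 7.87-fold and 8.42-fold, with edgeR adjusted p of 0.000171, 0.00492 and 0.000407. At those times 1.67%, 0.912% and 1.35% of genes were called higher in the knockout. ZT 7 (1.87 ± 0.53, adjusted p = 0.0436, 1.74% called higher) and ZT 10 (1.99 ± 0.53, adjusted p = 0.0254, 2.01%) were called too. Controls at ZT 7 had 1.63, 0.964 and 0.802 CPM and knockouts 2.71, 4.65 and 5.06, and at ZT 10 controls had 1.35, 0.930 and 1.17 and knockouts 3.22, 7.90 and 2.49. Both pairs of groups were apart as well. The ZT 7 call was narrow: it was lost with no filter on low counts (adjusted p = 0.0707). With 2 libraries per group, leaving out each replicate number in turn, the adjusted p ranged from 0.0470 to 0.417 at ZT 7, from 0.0542 to 0.462 at ZT 10, from 0.0243 to 0.127 at ZT 13, from 0.00254 to 0.0821 at ZT 16 and from 0.00191 to 0.0471 at ZT 4.

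The smallest RPF estimate was at ZT 1, near the peak of both curves. There the 3 control libraries were far apart, at 24.8, 4.34 and 11.6 CPM, and the knockouts had 25.8, 18.5 and 19.2, a difference of 0.64 ± 0.44 that was not called (adjusted p = 0.475). At ZT 19 controls had 5.76, 2.76 and 3.55 CPM against 8.74, 12.1 and 12.2, and at ZT 22 controls had 3.09, 2.84 and 9.43 against 13.3, 13.2 and 13.8. Neither pair overlapped, with differences of 1.45 ± 0.47 and 1.37 ± 0.46 that were not called (adjusted p = 0.105 and 0.0873, with 1.22% and 2.19% called higher). The lowest knockout libraries over the whole day had 2.49 CPM under RPF and 0.530 ad libitum, against 0.309 and 0.149 for the lowest controls.

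**Figure D2:**
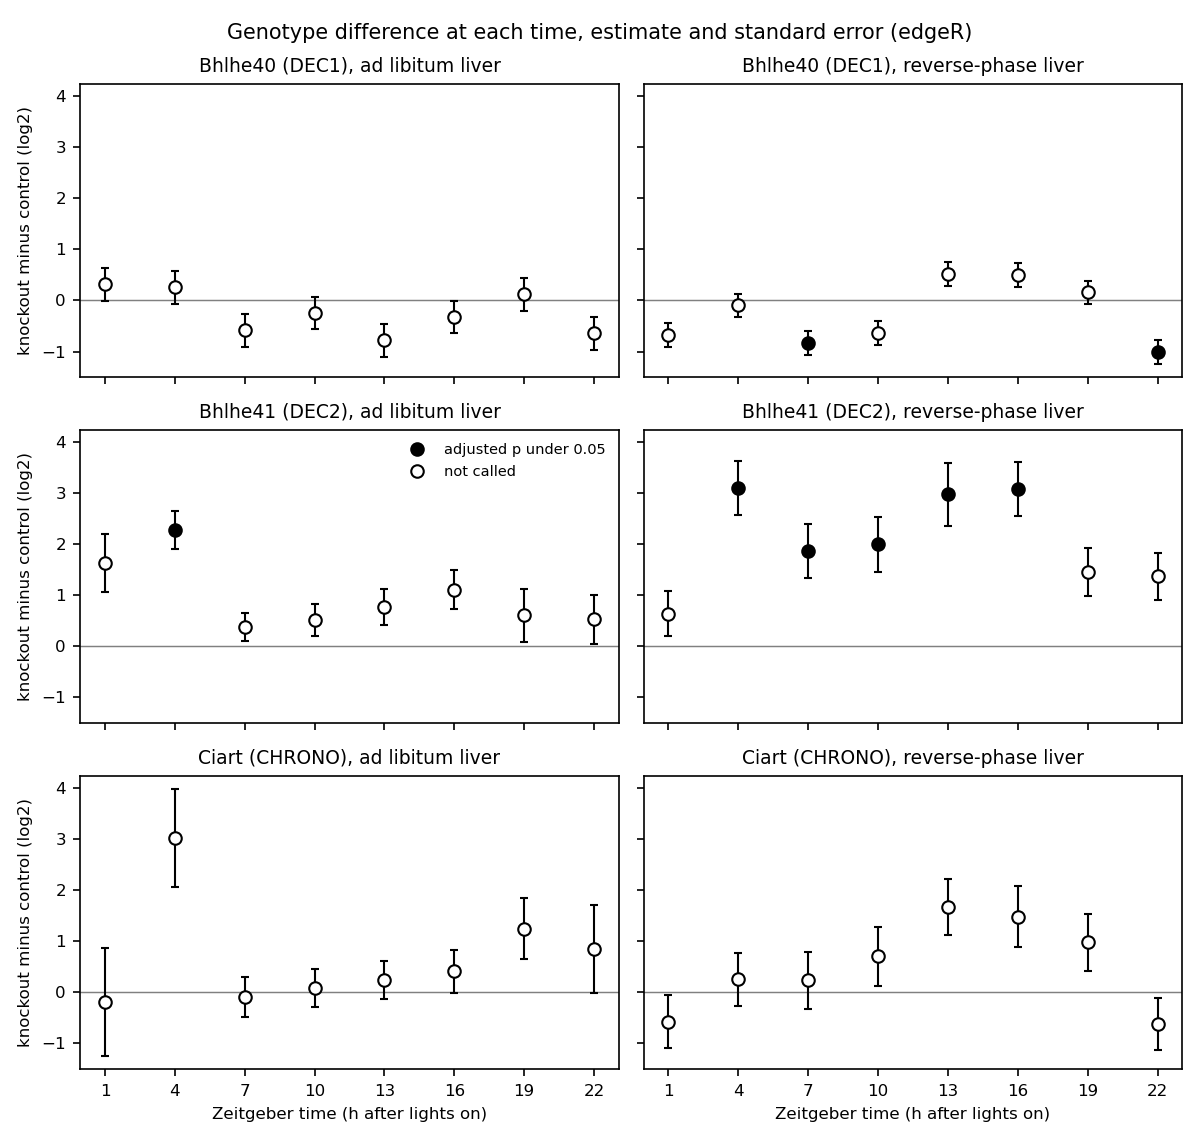
Knockout minus control difference (log2, edgeR estimate ± SE, 3 libraries per genotype and time) for each gene, filled where the adjusted p is under 0.05. Bhlhe41 is called at ZT 4 ad libitum and from ZT 4 to ZT 16 under RPF, Bhlhe40 at ZT 7 and ZT 22 under RPF, and Ciart at no time.

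Bhlhe41 kept a daily rhythm in both genotypes. In ad libitum controls the fitted curve peaked at ZT 8.96 ± 0.50 (SE, in hours) with a 12.96-fold range from peak to trough, and in knockouts at ZT 8.49 ± 0.50 with an 8.27-fold range (edgeR adjusted p = 1.61e-07 and 2.37e-07). Under RPF the peak was at ZT 23.5 ± 0.46 in controls and ZT 22.8 ± 0.73 in knockouts, with ranges of 15.5-fold and 4.78-fold (adjusted p = 5.65e-08 and 0.000264). A control rhythm was called in 48.1% of genes ad libitum and in 41.2% under RPF, and a knockout rhythm in 44.1% and 36.8%. The fitted range was thus smaller in the knockout on both schedules, but the difference in rhythm between genotypes was not called (adjusted p = 0.853 and 0.373).

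Ciart had the widest swing of the 3 genes in ad libitum liver, and its genotype difference was not called. The control curve peaked at ZT 11.3 ± 0.33 with a 54.9-fold range and the knockout curve at ZT 11.6 ± 0.35 with a 26.0-fold range (edgeR adjusted p = 5.11e-12 and 1.38e-10). At ZT 13 controls had 15.5, 28.8 and 31.3 CPM and knockouts 34.3, 24.9 and 29.8, which overlapped. At ZT 4 the controls had 0.295, 0.308 and 0.414 CPM, from 2, 2 and 3 expected counts, and the knockouts 1.74, 6.62 and 0.796, from 8, 38.5 and 6.5. All 3 knockouts were above all 3 controls there, 1 of them far above the rest. The difference of 3.01 ± 0.96 was not called (adjusted p = 0.110, with 0.894% of genes called higher). At ZT 19 the knockouts (6.19, 5.32 and 3.11 CPM) were again above the controls (2.19, 1.57 and 2.28), with a difference of 1.24 ± 0.60 (adjusted p = 0.356, 1.45% called higher). The daily mean was 0.57 ± 0.25 higher in the knockout (adjusted p = 0.0909). It passed the threshold with time as a factor (0.69, adjusted p = 0.0339), without control ZT 16 number 2 (0.68, 0.0440), whose 16.3 CPM stood above the 5.96 and 6.45 of its group, and without that library and control ZT 22 number 2 together (0.69, 0.0477).

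Under RPF the rhythm of Ciart was called in controls but not in knockouts. The control curve peaked at ZT 0.354 ± 0.61 with a 7.42-fold range (edgeR adjusted p = 1.75e-05), and the knockout curve had a 1.77-fold range (adjusted p = 0.329). At ZT 22, where controls were highest, they had 11.6, 14.2 and 20.1 CPM and the knockouts 11.5, 12.7 and 5.66, while at ZT 1 controls had 10.5, 13 and 15.7 and knockouts 7.93, 8.99 and 9.18. The knockouts were thus lower than every control at ZT 1, where 5.37% of genes were called, and overlapped at ZT 22. At ZT 16 controls had 2.33, 1.01 and 1.26 CPM and knockouts 1.36, 3.88 and 7.73, and at ZT 19 controls had 2.44, 1.77 and 3.31 and knockouts 4.77, 5.55 and 4.41. The knockouts were higher than every control at ZT 19 only, where 1.22% of genes were called higher. The knockout libraries at ZT 13 disagreed with one another, at 9.81, 2.82 and 15.9 CPM, against 5.13, 3.14 and 0.952 in controls. The difference in rhythm between genotypes was not called (adjusted p = 0.151). Single libraries at ZT 13 decided these calls: without control number 1 the rhythm difference (adjusted p = 0.0321) and the daily mean (0.65 higher in the knockout, adjusted p = 0.0335, against 0.50 ± 0.24 and 0.120 with all libraries) were called, and without knockout number 3 the knockout rhythm was (0.0440). With time as a factor the daily mean (0.51, adjusted p = 0.0463) and the knockout rhythm (0.0435) were called. No genotype difference of Ciart at a single time was called by edgeR on either schedule, while 2 of 8 times on each had an unadjusted p under 0.05. The share of all genes at that unadjusted threshold is not given.

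Bhlhe40 had the flattest rhythm of the 3 ad libitum, and its point estimates for genotype were negative. Its daily mean was 0.27 ± 0.13 lower in knockouts ad libitum and 0.25 ± 0.14 lower under RPF, and neither was called (edgeR adjusted p = 0.116 and 0.184). Time as a factor gave the RPF difference an adjusted p of 0.0136 at -0.26. The control curve peaked at ZT 13.8 ± 1.03 ad libitum with a 2.004-fold range (adjusted p = 0.00773), and the knockout curve, with a 1.43-fold range, had no called rhythm (0.252). At ZT 13 the ad libitum controls had 118, 244 and 207 CPM and the knockouts 90.9, 123 and 118, and at ZT 1 the controls had 49.2, 71.2 and 67.1 and the knockouts 92.2, 39.6 and 101. The groups overlapped at both times. At ZT 7 they were apart, with 165, 148 and 168 CPM in controls and 106, 111 and 104 in knockouts, yet the difference of -0.58 ± 0.32 was not called (adjusted p = 0.350, with 5.32% of genes called). By edgeR no ad libitum time was called, and 1 of 8 had an unadjusted p under 0.05, a threshold at which the share of all genes is not given.

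Under RPF Bhlhe40 was lower in the knockout at ZT 22 and ZT 7, on the rising and falling sides of its curve. The control curve peaked at ZT 2.37 ± 0.43 with a 5.42-fold range and the knockout curve at ZT 1.48 ± 0.70 with a 2.67-fold range (edgeR adjusted p = 1.27e-08 and 0.000145). At ZT 22 controls had 111, 92.0 and 138 CPM and knockouts 53.1, 52.0 and 64.1, a difference of -1.02 ± 0.23 (adjusted p = 0.00582, with 4.37% of genes called in either direction). At ZT 7 controls had 113, 97.0 and 116 CPM and knockouts 54.8, 60.7 and 66.7, a difference of -0.84 ± 0.23 (adjusted p = 0.0351, 3.13% called). All knockouts were below all controls at both times, and at ZT 10 too, where controls had 86.7, 76.0 and 85.3 CPM and knockouts 46.1, 59.6 and 53.6 (-0.64 ± 0.23, adjusted p = 0.121, 3.93% called). Near the trough the estimate was positive: at ZT 13 controls had 47.5, 24.5 and 30.8 CPM and knockouts 67.1, 35.7 and 44.3, with overlap and no call (0.52 ± 0.23, adjusted p = 0.435). At ZT 1, the highest time, controls had 400, 278 and 192 CPM and knockouts 232, 184 and 130, which overlapped (-0.67 ± 0.23, adjusted p = 0.0817). By edgeR 6 of 8 RPF times had an unadjusted p under 0.05, and 2 were called. The share of all genes at the unadjusted threshold is not given. With 2 libraries per group the adjusted p ranged from 0.155 to 0.202 at ZT 7 and from 0.0263 to 0.102 at ZT 22. The difference in rhythm between genotypes was not called with the 24-h cosine (adjusted p = 0.316) and was called with time as a factor (0.00656).

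Over the 3 genes the difference in rhythm between genotypes was called for none by edgeR or DESeq2 on either schedule. An unadjusted p under 0.05 was reached by 0 of 3 ad libitum and by 3 of 3 under RPF. Of all genes, 3.31% and 1.48% were called for this difference at adjusted p under 0.05, a stricter threshold. The share of all genes at an unadjusted p under 0.05 is not given, so the member counts have no like share beside them. The point estimates of the fitted range were smaller in the knockout for every member on both schedules. The share of all genes with a smaller fitted range in the knockout is not given.

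The fitted rhythm of all 3 genes differed between feeding schedules in controls and in knockouts, by a test of the cosine and sine terms together that does not separate peak time from range. The order of control peaks was the same on both, Bhlhe41 first, then Ciart, then Bhlhe40. Bhlhe41 and Ciart peaks were at ZT 8.96 ± 0.50 and 11.3 ± 0.33 ad libitum, and at ZT 23.5 ± 0.46 and 0.354 ± 0.61 under RPF. The distance between peaks of different genes was not tested, so the order rests on point estimates. In the joint fit of both schedules the control peak moved from ZT 13.8 to 2.41 for Bhlhe40, from 8.99 to 23.4 for Bhlhe41 and from 11.3 to 0.349 for Ciart, close to opposite sides of the day. The edgeR adjusted p for a different rhythm was 3.54e-11, 2.79e-13 and 5.09e-17. In knockouts it was 9.28e-05, 8.19e-10 and 3.46e-10. A difference in peak time is not shown there for Bhlhe40, which had no called knockout rhythm ad libitum, or for Ciart, which had none under RPF. Such a difference was common, with 53.6% of genes called in controls and 49% in knockouts. The tables were made from separate sets of libraries, so other differences between them cannot be told apart from feeding. Whether feeding altered the genotype's effect on rhythm was not called for any member by edgeR or DESeq2 (adjusted p = 0.197, 0.309 and 0.143). Of all genes, 5.38% were called at adjusted p under 0.05. An unadjusted p under 0.05, a looser threshold, was reached by 3 of 3 members, and the share of all genes at it is not given.

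**Figure D3:**
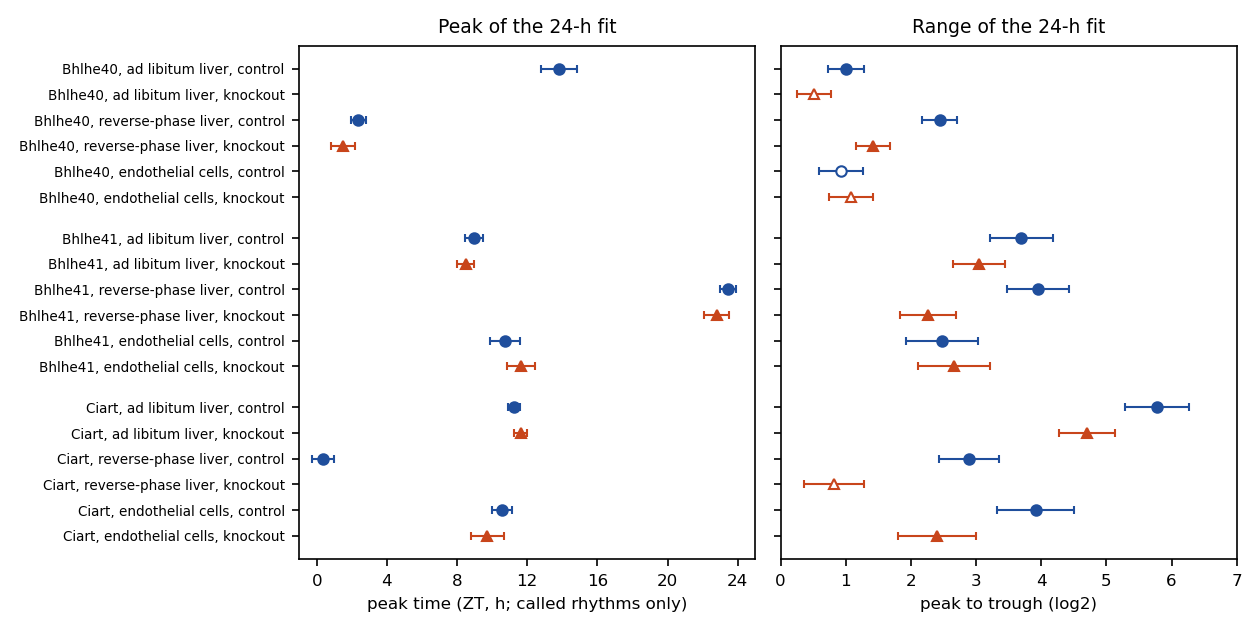
Peak time (left, zeitgeber hours ± SE, called rhythms only) and log2 peak-to-trough range (right, ± SE) of the 24-h fit for each gene, table and genotype (circles control, triangles knockout, open where the rhythm was not called). Liver peaks sit between ZT 8.49 and ZT 13.8 ad libitum and between ZT 22.8 and ZT 2.37 under RPF, and each liver range is smaller in the knockout. No rhythm difference between genotypes was called by this fit.

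Isolated endothelial cells expressed all 3 genes, with a peak at ZT 10 and no called genotype difference. Ciart controls had a signal of 34.1, 63.4 and 37.1 at ZT 10 and of 1.52, 1.27 and 3.79 at ZT 22, and knockouts had 46.6, 11.1 and 37.4 at ZT 10 and 4.84, 3.45 and 4.83 at ZT 22. Every ZT 10 library was above every ZT 22 library of its genotype, and the share of all genes with such a gap is not given. The limma fit put the Ciart peak at ZT 10.5 ± 0.58 in controls (15.1-fold, adjusted p = 0.00142) and at ZT 9.72 ± 0.95 in knockouts (5.29-fold, 0.0266). A control rhythm was called in 6.13% of genes and a knockout rhythm in 13.2%. Bhlhe41 controls had a signal of 42.6, 17.2 and 18.6 at ZT 10 against 4.54, 5.20 and 4.89 at ZT 4, and knockouts 30.6, 14.7 and 25.2 against 2.20, 4.04 and 3.26. At ZT 4 all 3 knockouts were below all 3 controls (-0.52 ± 0.49, adjusted p = 0.988, 0% of genes called, a stricter measure than no overlap). Its rhythm was called in both genotypes, with peaks at ZT 10.7 ± 0.85 (5.58-fold, adjusted p = 0.0245) and 11.7 ± 0.79 (6.34-fold, 0.00981). Mean knockout Bhlhe41 was above the control mean at 1 of 4 times, and the daily difference was -0.13 ± 0.28, which was not called (adjusted p = 0.991). The difference between whole liver and endothelial cells was not tested, since the tables are on different scales.

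Bhlhe40 was higher at ZT 10 than at ZT 4 in endothelial cells as well. Controls had a signal of 91.4, 131 and 133 at ZT 4 and of 269, 304 and 342 at ZT 10, and knockouts 114, 119 and 96.3 and then 278, 198 and 279. The groups at ZT 4 and ZT 10 did not overlap in either genotype. These times were not tested against each other, and the share of all genes with such a gap is not given. The 24-h cosine was not called (adjusted p = 0.171 and 0.0817), while time as a factor was (0.00353 and 0.00437), as was the cosine without control ZT 16 number 3 (0.0292 and 0.0295), which had a signal of 117 against 239 and 207 in its group. The share of all genes called with time as a factor is not given. At ZT 22 controls had 204, 171 and 192 and knockouts 126, 154 and 107, a difference of -0.55 ± 0.20 that was not called (adjusted p = 0.283). All 3 knockouts were below all 3 controls there, at a time when 0% of genes were called. A call is stricter than groups without overlap, and the share of all genes without overlap is not given. The daily differences between genotypes were -0.28 ± 0.17 for Bhlhe40 and 0.17 ± 0.30 for Ciart. For the daily mean the limma test called no member for genotype, with 0.0319% of genes called. An unadjusted p under 0.05 was reached by 0 of 3. At single times limma called none either, and Bhlhe40 had an unadjusted p under 0.05 at 1 of 4 times, ZT 22. The share of all genes at that unadjusted threshold is not given. The rhythm difference was called for no member either, with 2.04% of genes called, and 0 of 3 had an unadjusted p under 0.05.

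Calls in endothelial cells rested on few libraries. The Bhlhe41 control rhythm was lost without any 1 of control ZT 10 numbers 1, 2 and 3 or ZT 22 number 2 (adjusted p from 0.0585 to 0.0893), and the Ciart knockout rhythm without knockout ZT 10 number 1 (0.120) or number 3 (0.112). Hepatocyte markers were detected in the same libraries. Over 13 such markers the summed signal ranged from 11237 to 58387 in controls and from 8566 to 125164 in knockouts, against 100525 to 123095 and 83911 to 122824 for 15 endothelial markers. At ZT 10 the hepatocyte sum was between 13914 and 49680 in controls and between 20118 and 38499 in knockouts, and at ZT 4, when Bhlhe41 and Ciart were low, between 11237 and 58387 and between 8566 and 56350. At ZT 22, the Ciart trough in controls, it was between 13048 and 19570 in controls, with a median of 14023 against 47644 at ZT 10, so its median was also low at that trough while the ranges overlapped. In knockouts it was between 8639 and 125164 at ZT 22, with a median of 25295 against 22447 at ZT 10. Summed Kupffer markers in these libraries did not overlap between ZT 10 and ZT 22. In controls they were between 17555 and 22059 at ZT 10 and between 6074 and 12061 at ZT 22. In knockouts they were between 13990 and 18302 and between 7052 and 12396. At ZT 4 they were between 13311 and 17456 in controls and between 6745 and 14684 in knockouts. The part of hepatocyte or Kupffer cell RNA in the endothelial rhythms was not tested.

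**Figure D4:**
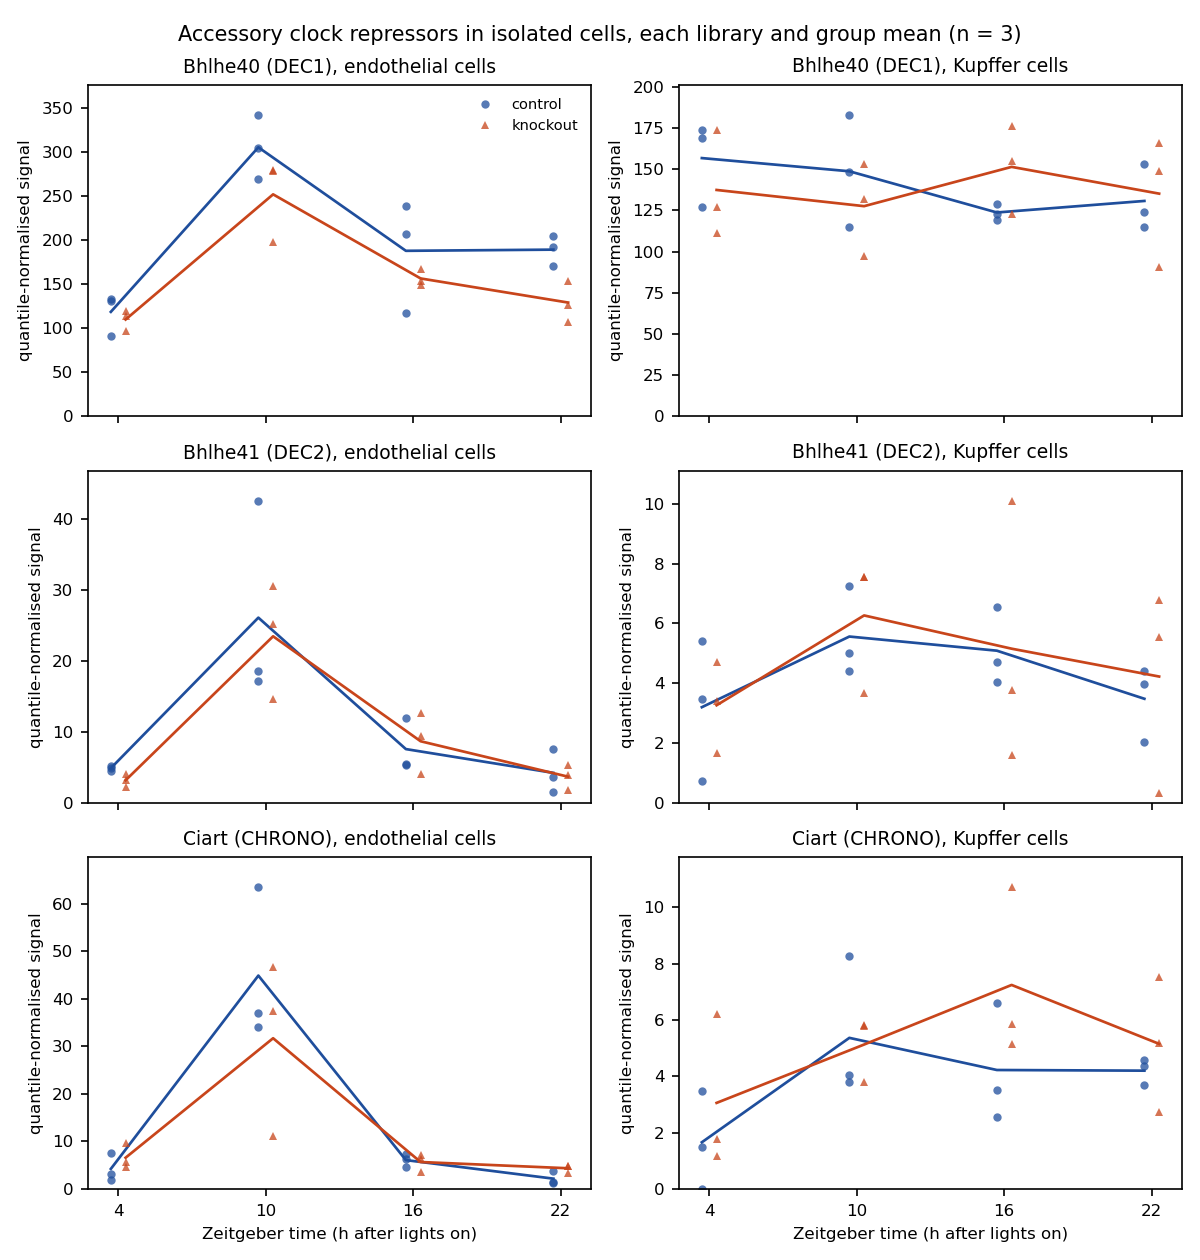
Quantile-normalised signal of the 3 genes in isolated endothelial and Kupffer cells against zeitgeber time, with 1 point per library and lines through the means of 3 (circles control, triangles knockout, linear axes from 0). In endothelial cells each gene is highest at ZT 10 in both genotypes; in Kupffer cells Bhlhe40 lies between 90.3 and 183 with no called rhythm, and Bhlhe41 and Ciart stay below 11.

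In Kupffer cells Bhlhe40 was the one member above the filter, a signal of at least 10 in 3 libraries. It ranged from 115 to 183 in controls and from 90.3 to 176 in knockouts and was flat over the day. The fitted range was 1.29-fold in controls and 1.12-fold in knockouts, with no called rhythm by limma (adjusted p = 0.626 and 0.899, unadjusted p = 0.267 and 0.760), where 1.96% and 1.81% of genes were called. The genotype difference was -0.03 ± 0.11 (adjusted p = 0.9997, with 0.0244% of genes called). Bhlhe41 ranged from 0.735 to 7.26 in controls and from 0.333 to 10.1 in knockouts, and Ciart from 0 to 8.26 and from 1.19 to 10.7, so neither was tested. Their genotypes overlapped at every time. Hepatocyte markers were detected in the Kupffer libraries too. Their summed signal ranged from 6956 to 70875 in controls and from 6103 to 75461 in knockouts. Summed Kupffer markers ranged from 144229 to 166748 and from 145672 to 168304. The part of hepatocyte RNA in the Kupffer values of the 3 genes was not tested.

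Transcripts on the opposite strand overlap 2 of the genes. The antisense RNA 0610040F04Rik (chromosome 6, 108527030 to 108610928, minus strand, mm9) shares 306 genomic bases with the start of Bhlhe40. The span of C920021L13Rik (chromosome 3, 95675445 to 95693016, plus strand) covers all 3724 genomic bases of Ciart, introns included. Its spliced length is 1722 bases, and overlap of exons was not checked for either pair. Whether the counting used strand is not given in the sources used here, and without strand reads from any shared exon cannot be told apart. In liver C920021L13Rik was scarce, with a mean of 0.574 ± 0.303 CPM (SD, n = 24) in ad libitum controls against 9.97 ± 10.7 for Ciart. In Kupffer cells it was the more abundant of the pair, with a signal of 114 ± 21.4 (SD, n = 12) in controls against 3.86 ± 2.13 for Ciart, and in endothelial cells it had 59.4 ± 12.6 against 14.4 ± 19.8. Over group means its Pearson r with Ciart was 0.24 in RPF liver, 0.15 in endothelial cells and 0.75 in Kupffer cells. For Bhlhe40 and 0610040F04Rik it was 0.60 in endothelial cells and -0.35 in Kupffer cells. There 0610040F04Rik had mean control signals of only 3.50 and 2.68.

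The genes whose group means followed each member most closely were sought among 10944 genes with a mean of at least 1 on the log2 CPM scale, by the smaller of 2 Pearson correlations over the 16 group means of each liver table. These points share libraries and times with one another, and the correlations are a description. For Bhlhe41 the nearest were Ripk2 (r = 0.92 ad libitum and 0.96 under RPF), an adaptor kinase of innate immune receptors, Dbp (0.94 and 0.90), a clock output factor that binds D-boxes, and Pcsk4 (0.87 and 0.89), a proprotein convertase. For Ciart they were 1700001L05Rik (0.91 and 0.84), Adarb1 (0.92 and 0.83), an RNA-editing adenosine deaminase, and Cdv3 (0.85 and 0.83). For Bhlhe40 the nearest was its overlapping antisense RNA 0610040F04Rik (0.88 and 0.96), followed by Zbtb14 (0.82 and 0.79), a zinc finger factor, and Dll1 (0.78 and 0.87), a Notch ligand. Among the members themselves, Bhlhe41 and Ciart had r = 0.71 and 0.63, Bhlhe40 and Ciart 0.65 and 0.59, and Bhlhe40 and Bhlhe41 0.32 and 0.41.

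Beside the other E-box repressors, Bhlhe41 and Cry1 were the 2 of 8 called higher in the knockout on both schedules. Of all genes tested, 13.7% ad libitum and 12.7% under RPF were called higher. The E-box list holds Per1, Per2, Per3, Cry1, Cry2 and the 3 members. Cry1, named here after its values were seen, encodes a cryptochrome and is a direct REV-ERB target. It rose by 1.103 ± 0.09 ad libitum and 1.34 ± 0.08 under RPF (edgeR adjusted p = 1.05e-13 and 3.63e-19). Per2, a period protein, fell by 0.35 on the log2 scale ad libitum (adjusted p = 0.0195) and was -0.23 ± 0.15 under RPF (0.285). The median difference of the 8 genes was 0.02 and 0.19, against -0.004 and -0.006 for all genes tested. Of the 19 clock genes as a whole, 9 rose and 2 fell ad libitum, and 10 rose and 1 fell under RPF. In either direction 27.2% and 26.9% of all genes tested were called. Of 6 genes listed as direct REV-ERB and ROR targets, 5 rose and 1 fell on each schedule, with median differences of 1.16 and 1.35. Among them Arntl rose by 1.62 ± 0.12 ad libitum and Npas2 by 3.94 ± 0.17. Bhlhe41's rise of 0.96 ad libitum was below that median and its rise of 1.95 under RPF above it.

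Markers of several cell types, hepatocytes among them, moved with genotype in the same livers. Of 11 stellate cell markers, 11 rose ad libitum and 9 under RPF, with medians of 0.43 and 0.33. Of 15 endothelial markers 11 and 6 rose, with medians of 0.28 and 0.19. Of 13 hepatocyte markers, 7 rose and 1 fell ad libitum, and 3 rose and 1 fell under RPF, with medians of 0.13 and 0.04. Of 13 Kupffer markers 0 were called on either schedule. Among all genes tested, 13.7% and 12.7% were called higher, and the median was -0.004 and -0.006. Summed stellate markers ranged from 213 to 488 CPM in controls and from 295 to 610 in knockouts ad libitum, and from 271 to 511 and from 384 to 558 under RPF. Summed Kupffer markers ranged from 354 to 670 CPM in controls and from 345 to 664 in knockouts ad libitum. The part of these cells in the Bhlhe41 difference was not tested.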

How the data were processed

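RNA was extracted with Trizol and RNeasy columns, libraries were made with TruSeq and sequenced on a Genome Analyzer, per the labels' protocols. STAR, HOMER and mm9 are named in the submitters' processing notes, without versions. The liver tables deposited by the authors hold expected counts per transcript, with 29.5% of values not whole ad libitum and 31.9% under reverse-phase feeding. The tables for isolated cells, deposited by the authors, hold a signal whose sorted values are identical in all libraries of a table, so it is quantile-normalised and its depth is unknown.

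Of 34600 transcript rows, 1 per symbol was kept, by the largest mean. Expected counts were rounded and fitted over all genes with edgeR 4.0.16 (TMM, filterByExpr, robust quasi-likelihood) in R 4.3.3. The signal was fitted with limma 3.58.1 on log2(value + 1), keeping genes at 10 or more in 3 libraries, so fold changes there are on that scale and understate changes of low genes. Genotype and rhythm tests used a 24-h cosine and sine per genotype, tests at single times used 1 mean per genotype and time, and a joint fit of both liver tables compared schedules. Calls needed a Benjamini-Hochberg adjusted p under 0.05 over all genes of the table. DESeq2 1.42.0, other normalisations, filters, pseudocounts and left-out libraries were alternatives. The scripts were tested on simulated data.

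Values were printed for the 3 members, for Arntl, Npas2, Per2 and Nr1d1, for the markers Alb, Stab2 and Clec4f, and for the 3 genes of most similar pattern per member. Nr1d2, as the other targeted gene, Cry1 and the antisense neighbours were added after their values were seen. Members and lists were chosen with earlier results of these data known. Libraries were not treated as paired by replicate number. Same-numbered control and knockout libraries correlated above 0.1 in 3 of 24, 6 of 24, 1 of 12 and 4 of 12 pairs of the ad libitum, reverse-phase, endothelial and Kupffer tables. The highest r was 0.227, 0.369, 0.192 and 0.419. Differently numbered libraries were not compared, so these values cannot settle whether some pairs share a source.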

Additional observations from a re-analysis of the deposited data

Results flagged for a closer look

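In whole liver the rhythm of each of the 3 genes differed between feeding schedules by the joint edgeR fit. In controls the adjusted p was 3.54e-11 for Bhlhe40, 2.79e-13 for Bhlhe41 and 5.09e-17 for Ciart. In knockouts it was 9.28e-05 for Bhlhe40, 8.19e-10 for Bhlhe41 and 3.46e-10 for Ciart. A rhythm difference of this kind was called in 53.6% of all genes in controls and in 49% in knockouts.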

How the results depend on the processing

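For the 3 genes, 1563 of 1596 values from fits without 1 library or replicate number, and 335 of 348 values from other settings, kept the direction and the side of the threshold. The calls of higher Bhlhe41 in knockout liver of the daily mean did so in all of these, and with the other Bhlhe41 transcript row in the daily-mean tests (0.97 and 1.96), which was not run at single times. Whether replicate numbers pair the libraries was not settled. With the replicate number as a block, Bhlhe41 differed by 0.96 ad libitum and 1.98 under RPF, the Bhlhe41 call at RPF ZT 7 was lost (adjusted p = 0.0509), endothelial calls fell from 256 to 144 for rhythm difference and rose from 1 to 2 at single times, and no other call of the 3 genes changed. With time as a factor, adjusted p values of 0.0435 (Ciart knockout rhythm, RPF), 0.00656 (Bhlhe40 rhythm difference, RPF), 0.00353 and 0.00437 (Bhlhe40 endothelial rhythms) passed the threshold, as did the genotype differences of Ciart (0.69 ad libitum, 0.51 RPF) and Bhlhe40 (-0.26 RPF). The counts of genes for rhythm difference were then 132 (205 with the cosine) in RPF liver and 43 (256) in endothelial cells. DESeq2 gave 330 for the former and 66 (28 with edgeR) for the genotype effect by schedule. Without the libraries that stood apart, Ciart differed by 0.69 ad libitum (called), and the uncalled estimates of Bhlhe40 changed sign to 0.0521 in Kupffer cells and -0.0177 by schedule. Endothelial counts became 2 (genotype, from 4), 1265 (control rhythm, from 768), 122 (rhythm difference) and 487 (single times, from 1), and Kupffer counts 118 (control rhythm, from 241), 74 (knockout rhythm, from 222) and 1 (single times, from 0). This setting at single times and the other transcript row were chosen after seeing the data. With a pseudocount of 0.1, genotype called 1 gene in endothelial and 1 in Kupffer cells (from 3), and 0 at single endothelial times. With 10, the endothelial Ciart difference was -0.0121 and 1 gene was called at single Kupffer times. With no filter, endothelial counts were 486 (control rhythm), 62 (rhythm difference) and 6 (single times), and Kupffer counts 125 (knockout rhythm) and 3 (single times). The cause of these changes was not tested.

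Leaving out 1 library, the Ciart genotype difference ranged from 0.49 to 0.68 ad libitum and from 0.34 to 0.65 under RPF, where its adjusted p ranged from 0.0440 to 0.50 for the knockout rhythm and from 0.0321 to 0.402 for the rhythm difference. In endothelial cells the Bhlhe41 genotype difference ranged from -0.23 to 0.0016, and the adjusted p from 0.0292 to 0.325 and 0.0295 to 0.199 for Bhlhe40 rhythms in control and knockout, from 0.0147 to 0.0893 for Bhlhe41 in control and from 0.0209 to 0.120 for Ciart in knockout. The Kupffer Bhlhe40 difference ranged from -0.0828 to 0.0333. Counts of genes ranged in endothelial cells from 1 to 7 (genotype), 248 to 1165 (control rhythm), 738 to 2442 (knockout rhythm) and 0 to 1333 (rhythm difference), and in Kupffer cells from 2 to 7 (genotype), 112 to 320 (control rhythm) and 57 to 310 (knockout rhythm). Leaving out 1 replicate number of all groups, counts at single times ranged from 993 to 1263 ad libitum (2255 with all), 465 to 1339 under RPF (1784) and 0 to 98 in endothelial cells. By schedule they ranged from 6 to 23 (genotype), 4414 to 5446 (knockout rhythm, 6636 with all) and 284 to 425 (rhythm difference, 728), and the genotype effect by schedule from -0.0908 to 0.19 for Bhlhe40 and -0.36 to 0.26 for Ciart. Depth limits Ciart and Bhlhe41 at their troughs, where controls held few reads.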
